A study of Callithrix jacchus with 20 samples.

Results

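SOX17, TFAP2C, PRDM1, PRDM14, NANOS3, DPPA3 and SOX15, genes tied to the specification of primordial germ cells (PGCs) in primates, were followed from marmoset pluripotent cells to sorted PGC-like cells. The members were chosen by their symbols, with earlier results of these data known. They make up 7 of the 25102 genes with a row in the count tables, and all 7 were among the 15797 genes that passed the filter on low counts. The RNA-seq data came from the common marmoset (Callithrix jacchus, cj) and held 20 libraries of 10 conditions, with 2 biological replicates in each. Every library is taken here as coming from the line DPZ_cjiPSC#2, a clone of induced pluripotent stem cells (iPSCs) made from foetal fibroblasts. The study gives this line as its default for the protocol with pre-induction, but it also adapted further lines to TESR. The sample titles name no line. On this reading the replicates are cultures of the same clone. cjiPSCs were kept either in TESR, a medium for human pluripotent cells, or in cjPSCM, a medium developed in the study to raise the competence of the cells for the PGC fate. Cells from both media were turned into precursors of mesendoderm (pre-ME) over 24 h with 3 µM CHIR, an inhibitor of GSK3, either with Activin A (ActA, 100 ng/ml) or without it. From cjPSCM cultures alone, both kinds of pre-ME were then aggregated into embryoid bodies. The titles of the sorted samples name the medium cjEPSCM, which is taken here as cjPSCM. The embryoid bodies were exposed to BMP4, the main PGC inducer, at 500 ng/ml, together with the survival factors SCF (100 ng/ml), EGF (50 ng/ml) and LIF (10 ng/ml). The cells were sorted on day 4. Cells positive for both sort markers are called cjPGCLCs here and cells negative for both are called somatic cells, each with ActA or without ActA after the pre-ME they came from. The study's methods give CXCR4 and INTα6 as the sort markers, whereas the sample labels pair EpCAM with one of these. No sorted cells from the TESR path were analysed here, so that path ends at pre-ME.

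PGCs are the founders of eggs and sperm. In primates, BMP and WNT signals act on competent cells through factors such as EOMES, GATA2, GATA3 and TFAP2A, and these cells then switch on SOX17, TFAP2C (which encodes AP2Ɣ) and PRDM1 (which encodes BLIMP1). SOX17 is an HMG-box transcription factor at the head of this network in humans, TFAP2C acts beside it, and PRDM1 is a repressor that holds back somatic programmes. PRDM14 is a PR-domain factor with a larger role in mouse than in human PGCs, NANOS3 binds RNA and protects migrating PGCs, DPPA3 (also known as STELLA) shields methylated DNA in early embryos and germ cells, and SOX15 is a SOX factor that is detected in human PGCs. SOX17 is also a factor of definitive endoderm and of arterial endothelium, and PRDM1 and TFAP2C act in several other lineages.

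Between 4784964 and 22067099 reads per library were counted on genes, with a median of 11599813. The floor of 3 counts stood for 1.40 to 6.92 normalised counts, and this floor and all counting intervals cover counting error only. The lowest total was that of a somatic library and the highest that of a TESR pre-ME library. All TESR pre-ME libraries carry sample numbers apart from those of the other libraries, and the titles do not say whether they were prepared separately. In comparisons of TESR pre-ME with other conditions, such a difference in preparation cannot be told apart from the medium or the step. The sort showed in the RNA of its markers, since CXCR4 was at 1317 and 1275 normalised counts in the cjPGCLC libraries with ActA and at 76.1 and 58.1 in the somatic libraries, and ITGA6, the gene of INTα6, was at 2277 and 1206 and at 218 and 149. EPCAM, the marker named by the labels alone, was at 1204 and 472 in those cjPGCLCs and 139.9 and 167 in those somatic cells. Without ActA, CXCR4 was at 1183 and 1128 in cjPGCLCs and 53 and 49.5 in somatic cells, ITGA6 at 1829 and 1401 and 201 and 155, and EPCAM at 2237 and 1234 and 141 and 145. The 2 cjPSCM cjiPSC libraries stood apart from each other. Reads outside genes made up 12.15% in replicate 1 and 19.3% in replicate 2. In TESR cjiPSCs they made up 10.64% and 13.34%, and in all pre-ME and sorted libraries 17.15% to 23.18%. SOX17 was 2.97-fold, TFAP2C 3.50-fold and the endothelial cadherin CDH5 3.48-fold higher in replicate 1, whereas PRDM14 was 10.2-fold higher in replicate 2. In such bulk libraries, fewer cells that express a gene and less RNA per cell cannot be told apart. Levels below are normalised counts of replicates 1 and 2, in that order. They follow 1 gene through the conditions and are not comparable between genes, as transcripts differ in length. Log2 fold changes and adjusted p-values are from edgeR's quasi-likelihood test with Benjamini-Hochberg adjustment over all genes tested. A gene was called where the adjusted p was under 0.05 and the log2 fold change lay beyond 2 in either direction.

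**Figure D1:**
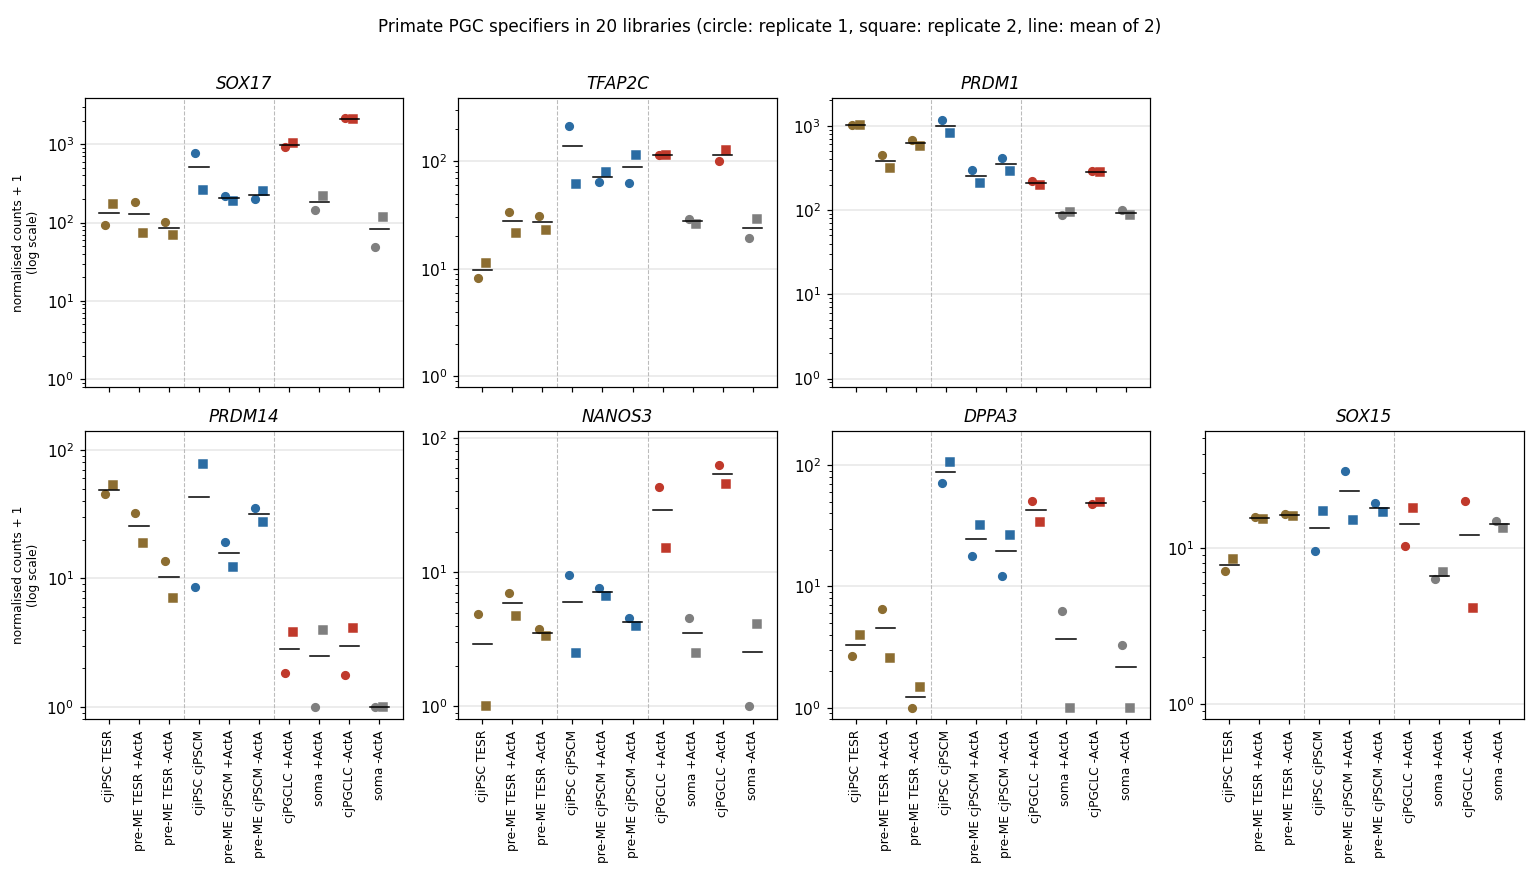
Normalised counts plus 1 (log axis) of the 7 genes in each of the 20 libraries, with cjiPSCs and pre-ME of TESR left, those of cjPSCM in the middle and the sorted cells right. Circles are replicate 1, squares replicate 2 and lines the mean, in brown for TESR, blue for cjPSCM, red for cjPGCLCs and grey for somatic cells. SOX17 and NANOS3 peak in the cjPGCLCs, PRDM1 is lower in all sorted cells than in cjiPSCs, PRDM14 is near the axis in all sorted cells, and DPPA3 and TFAP2C are higher in all cjPSCM cultures than in TESR cultures.

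SOX17 had its highest levels in the cjPGCLCs. It was at 2152 and 2096 in cjPGCLCs without ActA and at 913 and 1034 in those with ActA. Somatic cells, also sorted from day 4 embryoid bodies, had 48.4 and 118 without ActA and 143 and 219 with ActA, so the libraries of the sorted populations did not overlap. Compared with the somatic cells, SOX17 rose in the cjPGCLCs without ActA (log2 fold change 4.63, standard error 0.53, adjusted p = 2.53e-05) and with ActA (log2 fold change 2.42, standard error 0.47, adjusted p = 0.00569). Compared with the pre-ME, it rose by 9.37-fold without ActA and by 4.79-fold with ActA, and both changes were called (adjusted p = 4.32e-05 and 7.29e-04). In the cjiPSCs of cjPSCM the gene was already at 765 and 258, and the pre-ME had fewer normalised counts, 199 and 255 without ActA and 219 and 187 with ActA. The step to pre-ME passed the adjusted p without ActA (log2 fold change -1.17, standard error 0.45, adjusted p = 0.0476) but not with ActA (adjusted p = 0.0524), and neither passed the fold threshold. These values rest on replicate 1 of the cjiPSCs. Without it they were -0.15 and -0.30 (adjusted p = 0.839 and 0.782), and without replicate 2 they were -1.75 and -1.91. Against the cjiPSCs of cjPSCM, SOX17 was called in cjPGCLCs without ActA (log2 fold change 2.05, adjusted p = 0.00102) but not in those with ActA (log2 fold change 0.92, adjusted p = 0.0849). The former call was lost without replicate 2 of the cjiPSCs, where the log2 fold change was 1.46, and without replicate 1 it was 3.08. With ActA the same values were 0.33 and 1.94, and neither was called. Along the TESR path SOX17 stayed between 67.8 and 184 normalised counts, at 93.1 and 169.8 in cjiPSCs, 184 and 73.2 in pre-ME with ActA and 100.4 and 67.8 without it. From the cjPSCM pre-ME downwards, neighbours in the order of the means overlapped, whereas the cjPGCLCs without ActA, the cjPGCLCs with ActA and the cjiPSCs of cjPSCM were each clear of the next, the last by the narrow gap between 258 and 255 normalised counts.

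TFAP2C followed a different course. It was highest in replicate 1 of the cjPSCM cjiPSCs, with 213 and 60.8 in the 2 libraries, and the cjPGCLCs had 113 and 114 with ActA and 100.2 and 126 without ActA. The cjPGCLC libraries thus lay within the range of the cjiPSCs they came from. The log2 fold change against those cjiPSCs was -0.29 with ActA and -0.30 without (adjusted p = 0.588 and 0.57), and both values turned to 0.93 and 0.91 without replicate 1 of the cjiPSCs. Levels in somatic cells were low, 28.3 and 25.3 with ActA and 18.4 and 27.8 without ActA, fewer than any cjPSCM pre-ME library. TFAP2C was called in cjPGCLCs over somatic cells both with ActA (log2 fold change 2.09, standard error 0.51, adjusted p = 0.023) and without ActA (log2 fold change 2.25, standard error 0.53, adjusted p = 0.0109). With 2 libraries against 2 these calls were fragile. The one with ActA was lost without any 1 of its 4 libraries and the one without ActA without either somatic library or replicate 2 of the cjPGCLCs, where the adjusted p reached 0.229 and 0.108, while the log2 fold changes stayed between 2.01 and 2.62. In cjPSCM pre-ME it was at 63.4 and 78.6 with ActA and 61.3 and 114 without, and the change from these to cjPGCLCs was not called (adjusted p = 0.204 and 0.529). TESR cjiPSCs had the lowest level of the 10 conditions, 7.16 and 10.4, and here pre-ME had more, at 32.8 and 20.7 with ActA and 30.2 and 22 without. That step passed the adjusted p only (log2 fold change 1.69 and 1.65, adjusted p = 0.0336 and 0.0354).

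PRDM1 took another course. Its highest levels were those of the cjiPSCs, 1025 and 1030.4 in TESR and 1175 and 821 in cjPSCM, and the media overlapped. All pre-ME libraries were lower, with 295 and 209 in cjPSCM with ActA, 408 and 290.3 without it, 445 and 315 in TESR with ActA and 674 and 580.1 without. Each of the 4 steps to pre-ME passed the adjusted p and none passed the fold threshold, with log2 fold changes of -1.96, -1.48, -1.42 and -0.70 in the same order. The first of these was called without replicate 2 of the cjPSCM cjiPSCs (log2 fold change -2.21). The cjPGCLCs had 221 and 196 with ActA and 288 and 279 without, about the level of their pre-ME, where no change passed (adjusted p = 0.325 and 0.264). Somatic cells lay below them, at 86.8 and 93.9 with ActA and at 99.2 and 85.1 without. PRDM1 was thus higher in cjPGCLCs than in somatic cells at the adjusted p alone, with ActA (log2 fold change 1.22, standard error 0.26, adjusted p = 0.00923) and without ActA (log2 fold change 1.65, standard error 0.26, adjusted p = 4.32e-04). Set against the cjiPSCs, it fell in cjPGCLCs with ActA (log2 fold change -2.24, standard error 0.22, adjusted p = 9.67e-07), a call that was lost without replicate 1 of the cjiPSCs (log2 fold change -1.94). The value without ActA was -1.80 (adjusted p = 6.25e-06), short of the fold threshold, but it was -2.06 and called without replicate 2 of the cjiPSCs. BLIMP1 RNA in the cjPGCLCs therefore exceeded that of the somatic cells and stayed under that of the pluripotent cells they started from.

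NANOS3 was scarce before the sort. No library of cjiPSCs or pre-ME had more than 8.48 normalised counts, and the somatic cells had only 2 and 1 raw reads with ActA and 0 and 2 without. In cjPGCLCs it reached 42.3 and 14.2 normalised counts with ActA and 61.5 and 44.1 without, above every library of the other conditions. Ratios over the somatic cells were 13.1-fold (95% interval 4.27 to 65.3) with ActA and 30.2-fold (95% interval 8.15 to 252) without ActA, where the intervals come from the few somatic reads, and both comparisons were called (adjusted p = 0.0211 and 0.00165). The call with ActA was lost without either somatic library or without replicate 1 of the cjPGCLCs, where the adjusted p reached 0.416. Over pre-ME the gene also rose, with ActA (log2 fold change 2.23, standard error 0.65, adjusted p = 0.00945) and without ActA (log2 fold change 3.96, standard error 0.65, adjusted p = 1.45e-04). With ActA the call over pre-ME was lost without replicate 1 of the cjPGCLCs (log2 fold change 1.17, adjusted p = 0.287) and without either pre-ME library. Without ActA it held in each fit that left out 1 library.

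DPPA3 marked cjPSCM before it marked the cjPGCLCs. Reads were few in TESR, with 3 and 2 raw reads in cjiPSCs, 10 and 3 in pre-ME with ActA and 0 and 1 in pre-ME without it. cjPSCM cjiPSCs had 69.7 and 105 normalised counts, the highest level of the 10 conditions. The gene was at 16.7 and 30.9 in cjPSCM pre-ME with ActA and at 11.2 and 25.8 without. It fell at the step without ActA (log2 fold change -2.25, standard error 0.51, adjusted p = 0.0029), while the step with ActA passed the adjusted p alone (log2 fold change -1.89, adjusted p = 0.0177). The call without ActA was lost without replicate 2 of the cjiPSCs or replicate 1 of the pre-ME (log2 fold change -1.97 and -1.70). cjPGCLCs were at 49.9 and 32.7 with ActA and 47.1 and 48.9 without, above their pre-ME and below the cjiPSCs in every library. Against pre-ME the adjusted p was 0.186 with ActA and 0.04 without, and against cjiPSCs it was 0.0867 and 0.157, and no fold passed the threshold. Somatic cells were down to 3 and 0 raw reads with ActA and 1 and 0 without. The ratio of cjPGCLCs to somatic cells was 17.9-fold (95% interval 5.91 to 88.6) with ActA and 51.5-fold (95% interval 9.01 to 2055) without ActA, and both were called (adjusted p = 0.00792 and 0.00172). Without replicate 2 of the somatic cells the adjusted p was 0.156 with ActA and 0.0574 without ActA, and without replicate 1 of the cjPGCLCs with ActA it was 0.0855.

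PRDM14 was all but missing from the sorted cells. TESR cjiPSCs had 44.1 and 52.1 normalised counts and cjPSCM cjiPSCs 7.54 and 77.1, the widest gap between these replicates among the 7 genes. Pre-ME of cjPSCM had 18.4 and 11.2 with ActA and 34.2 and 26.7 without, and pre-ME of TESR had 31.2 and 18 with ActA and 12.6 and 6.08 without. All 8 sorted libraries held 0 to 2 raw reads, with 1 and 2 in cjPGCLCs with ActA, 1 and 2 in those without, 0 and 2 in somatic cells with ActA and none in those without. From pre-ME to cjPGCLCs PRDM14 was 9.87-fold (95% interval 3.07 to 50.6) lower with ActA and 20.4-fold (95% interval 6.76 to 101) lower without, and both falls were called (adjusted p = 0.0397 and 0.00577). The call with ActA was lost without either cjPGCLC library or replicate 1 of the pre-ME, and the one without ActA without replicate 1 of the cjPGCLCs (adjusted p = 0.101). In somatic cells without ActA it was at least 5.43-fold lower than in the pre-ME, against a floor of 3 counts per library (adjusted p = 0.00504, and 0.0543 without replicate 2 of the somatic cells). Between cjPGCLCs and somatic cells no fold is given, since both were at the floor. Against cjPSCM cjiPSCs PRDM14 was 21.7-fold (95% interval 7.09 to 108) lower in cjPGCLCs with ActA and 22.5-fold (95% interval 7.33 to 112) lower in those without. Both comparisons against the cjiPSCs were called, with log2 fold changes of -4.50 and -4.53. Without replicate 2 of the cjiPSCs these were -2.17 and -2.21, and both calls were lost (adjusted p = 0.0831 and 0.0776). Without replicate 1 they were -5.46 and -5.50. The call without ActA was also lost without replicate 1 of the cjPGCLCs. The step from TESR cjiPSCs to pre-ME without ActA was called as well (log2 fold change -2.34, standard error 0.70, adjusted p = 0.016), whereas in cjPSCM the same step gave -0.32 (adjusted p = 0.732) and turned to 2.03 without replicate 2 of the cjiPSCs, where it was called higher (adjusted p = 0.0163).

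SOX15 gave few reads in all conditions. Its levels ran from 3.15 to 30.0 normalised counts over the 20 libraries, and the cjPGCLCs had 9.3 and 17.1 with ActA and 19 and 3.15 without, so their replicates lay far apart. Somatic cells with ActA were at 5.31 and 5.96, and the fall from their pre-ME at 30 and 14 was the only comparison in which SOX15 was called (log2 fold change -2.01, standard error 0.65, adjusted p = 0.018). That value sits at the fold threshold, and it was lost without either somatic library or without replicate 1 of the pre-ME (log2 fold change -1.30).

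**Figure D2:**
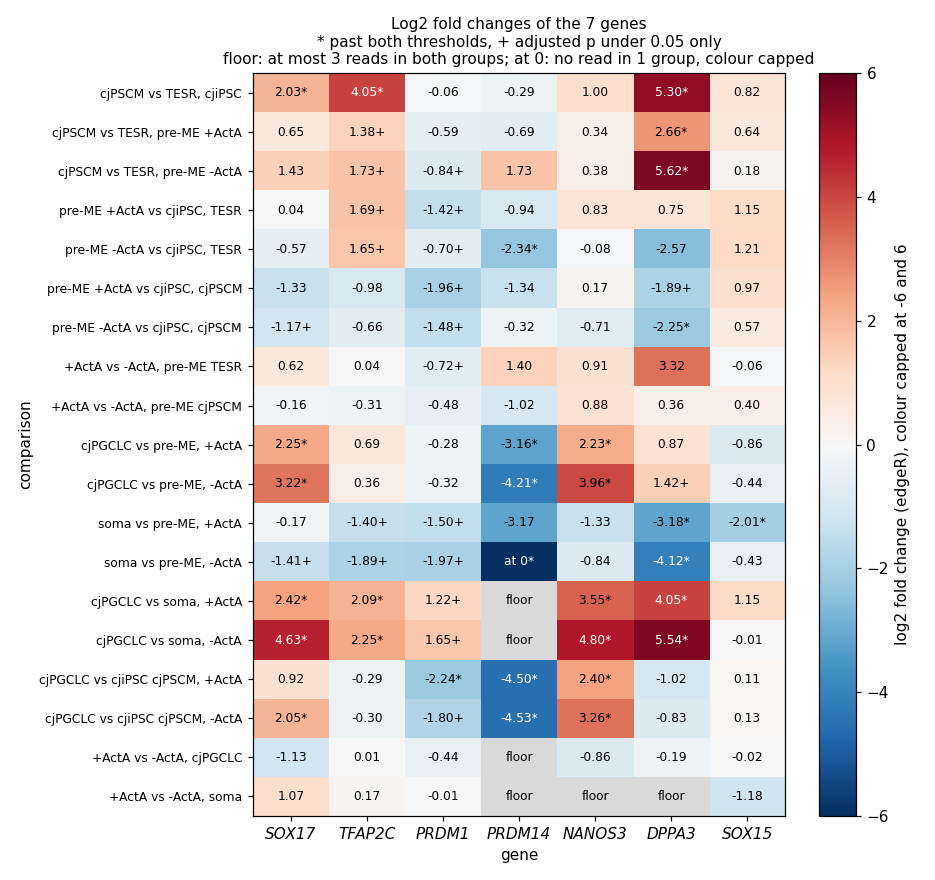
Log2 fold changes from edgeR of the 7 genes in 19 comparisons of conditions, one comparison per row, with stars for genes past both thresholds and plus signs for genes past the adjusted p alone. Red is higher and blue lower in the condition named before "vs". The rows of cjPGCLCs against somatic cells hold 4 called genes each, and the rows of ActA hold none. Grey cells had at most 3 reads in both groups and show no value.

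Read by comparison, the sort held the most called members. SOX17, TFAP2C, NANOS3 and DPPA3, 4 of 7, were called higher in cjPGCLCs than in somatic cells with ActA, where 1.58% of all genes tested were called in either direction. Without ActA the same 4 symbols were called, against 2.84% of all genes. The study had already reported SOX17, TFAP2C, PRDM1, NANOS3 and DPPA3 as higher in these sorted cells. These counts describe the same libraries and are no independent support. Leaving PRDM14 out, which was at the floor, the median log2 fold change of the members was 2.26 with ActA and 3.44 without, against 0.00705 and 0 over all genes tested. The counts with ActA depended on each library. Without replicate 1 of the somatic cells only DPPA3 was called (SOX17 adjusted p = 0.0952), without their replicate 2 or without replicate 1 of the cjPGCLCs only SOX17, and the adjusted p of TFAP2C lay between 0.0625 and 0.229 in the 4 fits. Without ActA, leaving out replicate 2 of the somatic cells left SOX17 and NANOS3.

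The steps into and out of pre-ME held fewer called members. From pre-ME to cjPGCLCs, SOX17 and NANOS3 rose and PRDM14 fell, both with ActA, where 8.36% of all genes were called, and without ActA, where 7.88% were. Without replicate 1 of the pre-ME or of the cjPGCLCs, SOX17 alone was called with ActA. From pre-ME to somatic cells no member rose. DPPA3 and SOX15 fell with ActA (all genes 8.30%), and without replicate 2 of the somatic cells neither was called. DPPA3 and PRDM14 fell without ActA (all genes 7.94%), where DPPA3 was 18-fold (95% interval 3.06 to 725) lower, against 9.05-fold (95% interval 2.89 to 45.7) with ActA. Without replicate 2 of the somatic cells without ActA, neither of these was called and SOX17 and TFAP2C were called lower instead. In cjPGCLCs against the cjiPSCs of cjPSCM, PRDM1 and PRDM14 fell and NANOS3 rose with ActA (all genes 9.51%), and SOX17 and NANOS3 rose and PRDM14 fell without ActA (all genes 10.8%). NANOS3 was 5.67-fold and 10.6-fold higher in these cjPGCLCs than in the cjiPSCs (adjusted p = 0.00695 and 5.13e-04), and with ActA the call was lost without replicate 1 of the cjPGCLCs or replicate 2 of the cjiPSCs, where only PRDM1 was called. The log2 fold change of NANOS3, 2.40 with ActA and 3.26 without, was 4.26 and 5.11 without replicate 1 of the cjiPSCs, and 1.79 and 2.64 without their replicate 2. From cjPSCM cjiPSCs to pre-ME, no member was called with ActA (all genes 3.06%), although PRDM1 and DPPA3 passed the adjusted p, 4 members had an unadjusted p under 0.05 in edgeR, and DESeq2 called none as well. Without the cjiPSC replicate 1, PRDM14 and DPPA3 were called in that step, and without replicate 2 PRDM1 was. PRDM1 was also called without replicate 1 of the pre-ME and DPPA3 without replicate 2. Only DPPA3 was called in the step without ActA (all genes 5.27%). From TESR cjiPSCs to pre-ME none was called with ActA by edgeR or DESeq2 (all genes 6.96%, 2 members at an unadjusted p under 0.05) and PRDM14 alone without it (all genes 7.86%), and this call was lost without replicate 2 of the cjiPSCs (adjusted p = 0.0509) or of the pre-ME (log2 fold change -1.90).

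Between the media, 3 members already differed before pre-ME. In cjiPSCs, SOX17 (log2 fold change 2.03, standard error 0.47, adjusted p = 0.00305), TFAP2C (log2 fold change 4.05, standard error 0.55, adjusted p = 2.63e-05) and DPPA3 (log2 fold change 5.30, standard error 0.71, adjusted p = 2.12e-05) were higher in cjPSCM than in TESR, where 9.18% of all genes were called. The SOX17 call hung on the uneven replicates of cjPSCM, as its log2 fold change was 1.02 without replicate 1 and 2.63 without replicate 2, and it was also lost without replicate 1 of TESR and with DESeq2. TFAP2C and DPPA3 were called in each fit with 1 library left out, TFAP2C with 2.83 without replicate 1 of cjPSCM. PRDM14, at -0.29 here, was called lower in cjPSCM without its replicate 2 (log2 fold change -2.64, adjusted p = 0.00333) and was 0.66 without its replicate 1. After the step to pre-ME, DPPA3 alone was still called, with ActA (log2 fold change 2.66, standard error 0.65, adjusted p = 0.00724, all genes 4.12%) and without ActA, where it was 65.9-fold (95% interval 11.2 to 2658) higher in cjPSCM (adjusted p = 5.90e-04, all genes 3.91%). Its call with ActA was lost without replicate 2 of either medium. Without replicate 1 of the cjPSCM pre-ME without ActA, TFAP2C was called there too. TFAP2C passed the adjusted p in pre-ME with ActA (log2 fold change 1.38, adjusted p = 0.0345) and without ActA (log2 fold change 1.73, adjusted p = 0.0135), and so did PRDM1, which was lower in cjPSCM, without ActA (log2 fold change -0.84, adjusted p = 0.0115).

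Whether the step itself differed between the media was tested as an interaction, added after the values were seen and judged on the adjusted p alone. The TESR pre-ME libraries, with their separate sample numbers, enter on the TESR side only. The step of TFAP2C with ActA differed between the media, with a log2 fold change of 1.69 in TESR and of -0.98 in cjPSCM (difference of log2 fold changes -2.67, standard error 0.73, adjusted p = 0.038), and 6.20% of all genes passed. This call was lost in 6 of the fits with 1 library left out, those without either cjiPSC library of TESR, without replicate 1 of the cjPSCM cjiPSCs, without either pre-ME library of cjPSCM and without replicate 1 of the TESR pre-ME. The step in cjPSCM, -0.98 with ActA and -0.66 without, was not called itself and turned to 0.24 and 0.55 without replicate 1 of the cjiPSCs. Over all fits with 1 library left out the difference with ActA ran from -3.30 to -1.46, and SOX17 joined TFAP2C without replicate 2 of the cjPSCM cjiPSCs. Without ActA the difference for TFAP2C was -2.32 (adjusted p = 0.0662), no member passed in edgeR, and 6.54% of all genes did. In edgeR 2 members had an unadjusted p under 0.05 there and DESeq2 called 1, TFAP2C, while without replicate 2 of the cjPSCM cjiPSCs TFAP2C, PRDM1 and PRDM14 passed. DPPA3 had a difference of -2.65 with ActA that did not pass either (adjusted p = 0.174).

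No member was called between cells with ActA and without ActA at any stage. It was compared in cjPSCM pre-ME (all genes 2.11%), TESR pre-ME (all genes 2.00%), cjPGCLCs (all genes 0.380%) and somatic cells (all genes 0.00633%). Neither edgeR nor DESeq2 called one. At an unadjusted p under 0.05 in edgeR stood PRDM1 in cjPSCM pre-ME, PRDM1 and DPPA3 in TESR pre-ME, SOX17 in cjPGCLCs and none in somatic cells. PRDM1 in TESR pre-ME passed the adjusted p alone (log2 fold change -0.72, standard error 0.21, adjusted p = 0.0373). SOX17 had fewer normalised counts in cjPGCLCs with ActA than without, but the adjusted p was 0.212 (log2 fold change -1.13, standard error 0.42). NANOS3 and PRDM1 did not pass there either (log2 fold change -0.86 and -0.44, adjusted p = 0.532 and 0.433). With 2 libraries against 2, unchanged genes can also lie apart without overlap, so overlap is not read as a result in this comparison. The sort effect on SOX17 was 2.42 with ActA and 4.63 without, and the test of this difference did not pass in the model of all libraries (adjusted p = 0.387, and 0.0633% of all genes passed), where SOX17 was the only member at an unadjusted p under 0.05 and DESeq2 called none. In a fit of the 8 sorted libraries alone it did (adjusted p = 0.0217). In pre-ME, PRDM14 had a log2 fold change with ActA of -1.02 in cjPSCM and 1.40 in TESR, and neither passed (adjusted p = 0.337 and 0.291). The effect in cjPSCM less that in TESR was -2.42 (standard error 1.01, adjusted p = 0.24), while 0.399% of all genes passed that interaction. PRDM14 and DPPA3 had an unadjusted p under 0.05 there, DESeq2 called none, and a fit of these 8 libraries alone gave an adjusted p of 0.0248.

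**Figure D3:**
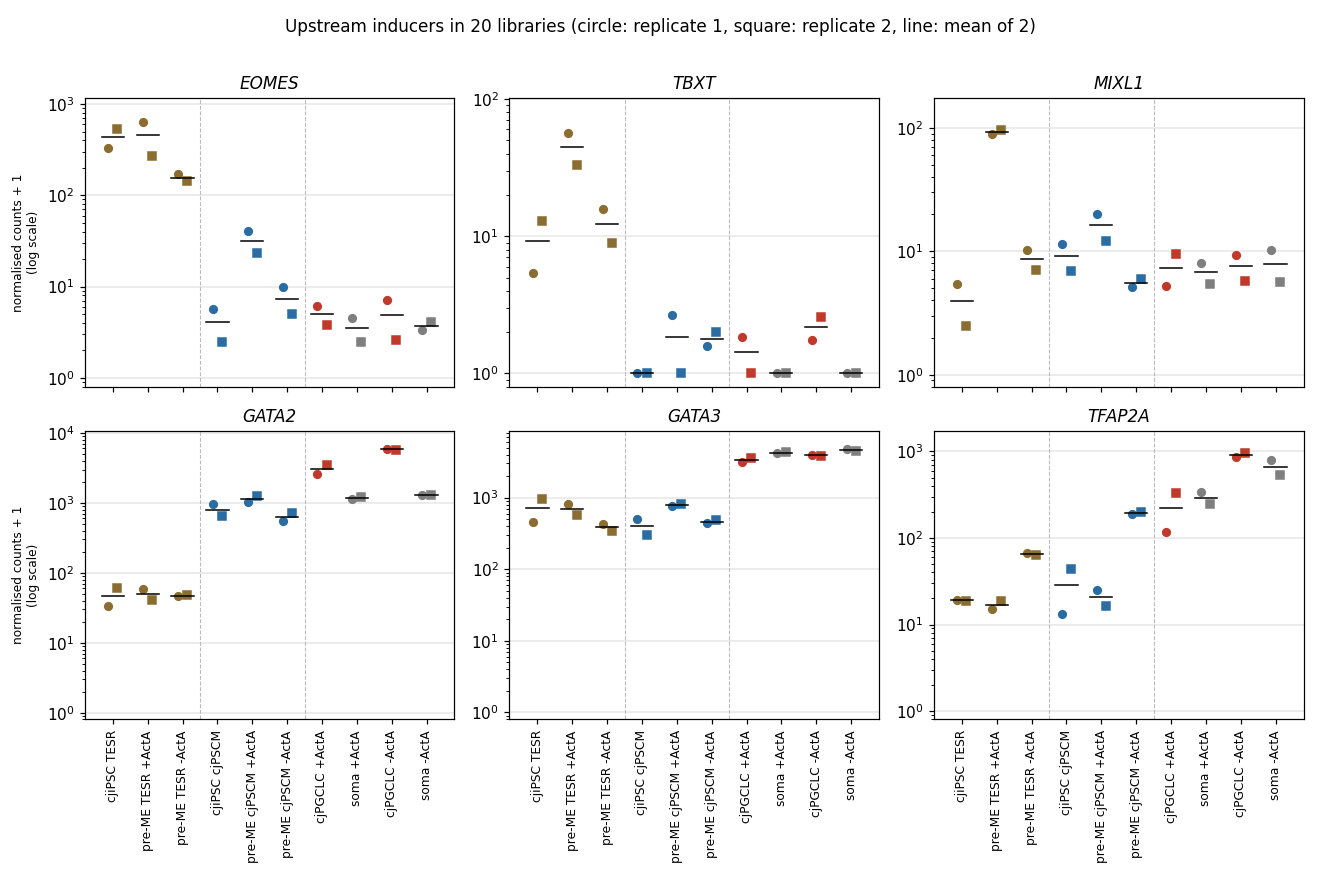
Normalised counts plus 1 (log axis) of 6 upstream inducers in the 20 libraries, drawn like the members. EOMES and TBXT are higher in TESR than in cjPSCM cultures, GATA2 is higher in cjPSCM cultures and highest in cjPGCLCs, and GATA3 is high in all sorted cells.

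The upstream inducers of the members, a list of 12 genes of the WNT, Activin and BMP response, held genes that differed between the media. EOMES, the T-box factor that acts upstream of SOX17 in human PGCs, was at 329 and 536 in TESR cjiPSCs and at 4.71 and 1.48 in cjPSCM cjiPSCs. In cjPSCM pre-ME it was at 39.2 and 22.5 with ActA and 8.84 and 3.96 without, and it rose with ActA over the cjiPSCs (log2 fold change 3.19, standard error 0.73, adjusted p = 0.00591). TBXT, the gene of BRACHYURY, was at 55.3 and 31.8 in TESR pre-ME with ActA and had no more than 1.67 normalised counts in any cjPSCM or sorted library. GATA2, a BMP target, was the 1 inducer called between the sorted populations, at 5937 and 5798 in cjPGCLCs and 1279.9 and 1299.6 in somatic cells without ActA (log2 fold change 2.20, standard error 0.22, adjusted p = 6.97e-06), so 1 of 12 inducers was called without ActA and 0 of 12 with ActA, where GATA2 had a log2 fold change of 1.37 (adjusted p = 0.00102). DESeq2 gave the same counts, and 2 of 12 had an unadjusted p under 0.05 in edgeR with ActA. GATA3 was at 3116 and 3539 in cjPGCLCs and at 4169.8 and 4322 in somatic cells with ActA. TFAP2A, which marks common progenitors of amnion and PGCs, was lower with ActA in cjPSCM pre-ME (log2 fold change -3.24, standard error 0.48, adjusted p = 2.60e-04) and in cjPGCLCs (log2 fold change -2.06, standard error 0.37, adjusted p = 0.00652). The median log2 fold change of the list between cjPGCLCs and somatic cells was 0.06 with ActA and 0.18 without. At the step to pre-ME, 2 of 12 were higher and none lower in cjPSCM with ActA and likewise without it, and in TESR 3 were higher with ActA and 1 without. MSX1, a homeobox gene of the BMP response, went from 18.8 and 11.9 to 632 and 395 in cjPSCM with ActA.

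**Figure D4:**
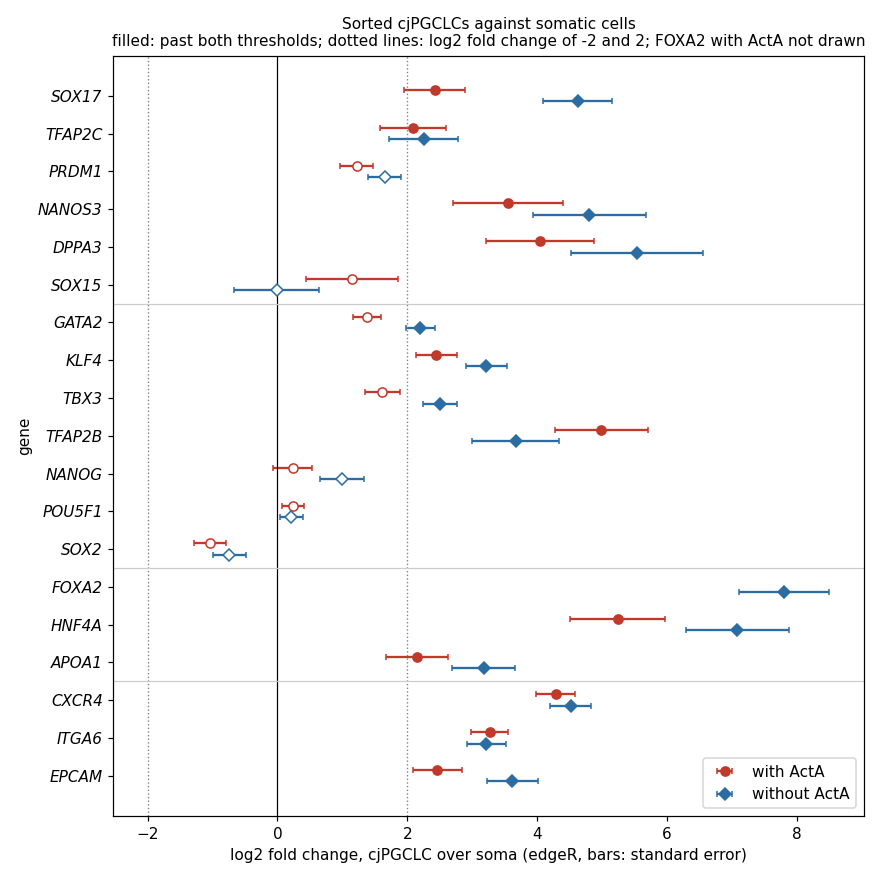
Log2 fold changes (edgeR) of cjPGCLCs over somatic cells with bars for the standard error, with ActA in red circles and without ActA in blue diamonds, filled where the gene was called. The members stand at the top, then inducers, network and pluripotency genes, endoderm genes and the sort markers. FOXA2 with ActA is left out because both somatic libraries were at 0.

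Of the wider PGC network, 17 of 21 listed genes were tested. KLF4 was called higher in cjPGCLCs with ActA (1 of 17, median over the list 0.24), and UTF1, KLF4 and TBX3 were called higher without ActA (3 of 17, median 0.74). KLF4, a naive pluripotency factor, was at 366 and 409.8 in cjPGCLCs and 46.1 and 38.7 in somatic cells without ActA (log2 fold change 3.22, standard error 0.32, adjusted p = 6.17e-06). TBX3, a T-box factor of pluripotent and extraembryonic cells, was at 644 and 449 against 87.6 and 107 (log2 fold change 2.50, standard error 0.27, adjusted p = 1.22e-05), and UTF1, a chromatin factor of pluripotent and germ cells, was 17.2-fold (95% interval 5.69 to 84.7) higher (adjusted p = 0.00304). NANOG, a pluripotency factor that human PGCs keep on, did not pass the test between the sorted populations. It was at 136 and 297 in cjPGCLCs and 158 and 203 in somatic cells with ActA (adjusted p = 0.822), and at 146 and 238 in cjPGCLCs and 92.2 and 97.5 in somatic cells without ActA, where the libraries did not overlap (adjusted p = 0.0752), and it fell from the cjiPSC level of 1760.5 and 1300.0 to the cjPGCLCs with ActA (log2 fold change -2.84, standard error 0.29, adjusted p = 1.04e-06) and without ActA (log2 fold change -3.01, adjusted p = 5.48e-07). POU5F1, the gene of OCT4A, had 1380.2 and 1490.1 in cjPGCLCs and 1262 and 1184 in somatic cells with ActA (adjusted p = 0.589). Without ActA POU5F1 was not among the called genes either. SOX2, which stays silent in human PGCs, was at 1094 and 1838 in cjPGCLCs and 2799 and 3245 in somatic cells with ActA, a difference past the adjusted p alone (log2 fold change -1.04, standard error 0.25, adjusted p = 0.0225). Without ActA SOX2 was at 1100.4 and 1571 in cjPGCLCs and 2214 and 2282 in somatic cells (adjusted p = 0.0804). Of 10 late germ cell genes, 4 were tested and none was called in either sort comparison by edgeR or DESeq2 or had an unadjusted p under 0.05, and DDX4, the vasa gene of later germ cells, had at most 1 read in any library (list medians -0.57 and -0.33). At the step to pre-ME in cjPSCM, 0 network genes were higher and 1 lower with ActA, and 1 was higher and 2 were lower without it. In TESR 2 were higher and 3 lower in each of the pre-ME. No late germ cell gene was called at the step in cjPSCM, and 2 of 4 were higher in each pre-ME of TESR.

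Among 26 paralogues of the members, 21 were tested. With ActA, TFAP2B was called higher and PRDM12 lower in cjPGCLCs, and without ActA TFAP2B and PRDM16 were called higher. TFAP2B, the AP2β gene, was at 219 and 198 in cjPGCLCs and 8.85 and 4.47 in somatic cells with ActA (log2 fold change 4.99, standard error 0.71, adjusted p = 4.51e-04), and at 162 and 148 against 20.8 and 6.19 without ActA (log2 fold change 3.67, standard error 0.67, adjusted p = 0.00177). PRDM16 had no read in the somatic cells without ActA and 15 and 5 raw reads in the cjPGCLCs, at least 1.77-fold higher against a floor of 3 counts per library. Of these paralogues DESeq2 called only TFAP2B. SOX7 and SOX18, the closest relatives of SOX17 and factors of blood vessels, were not called in either sort comparison, and SOX7 was lower in cjPGCLCs without ActA at the adjusted p alone (log2 fold change -1.31, standard error 0.33, adjusted p = 0.0152). PRDM12, a factor of sensory neurons, was at 3.38 and 8.53 in cjPGCLCs and 33.6 and 31.3 in somatic cells with ActA. The median of the paralogues was -0.10 with ActA and -0.17 without. At the step to pre-ME in cjPSCM, 1 was higher and 2 were lower with ActA, and 2 were higher and 3 lower without, and in TESR the counts were 1 and 2 with ActA and 0 and 3 without.

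**Figure D5:**
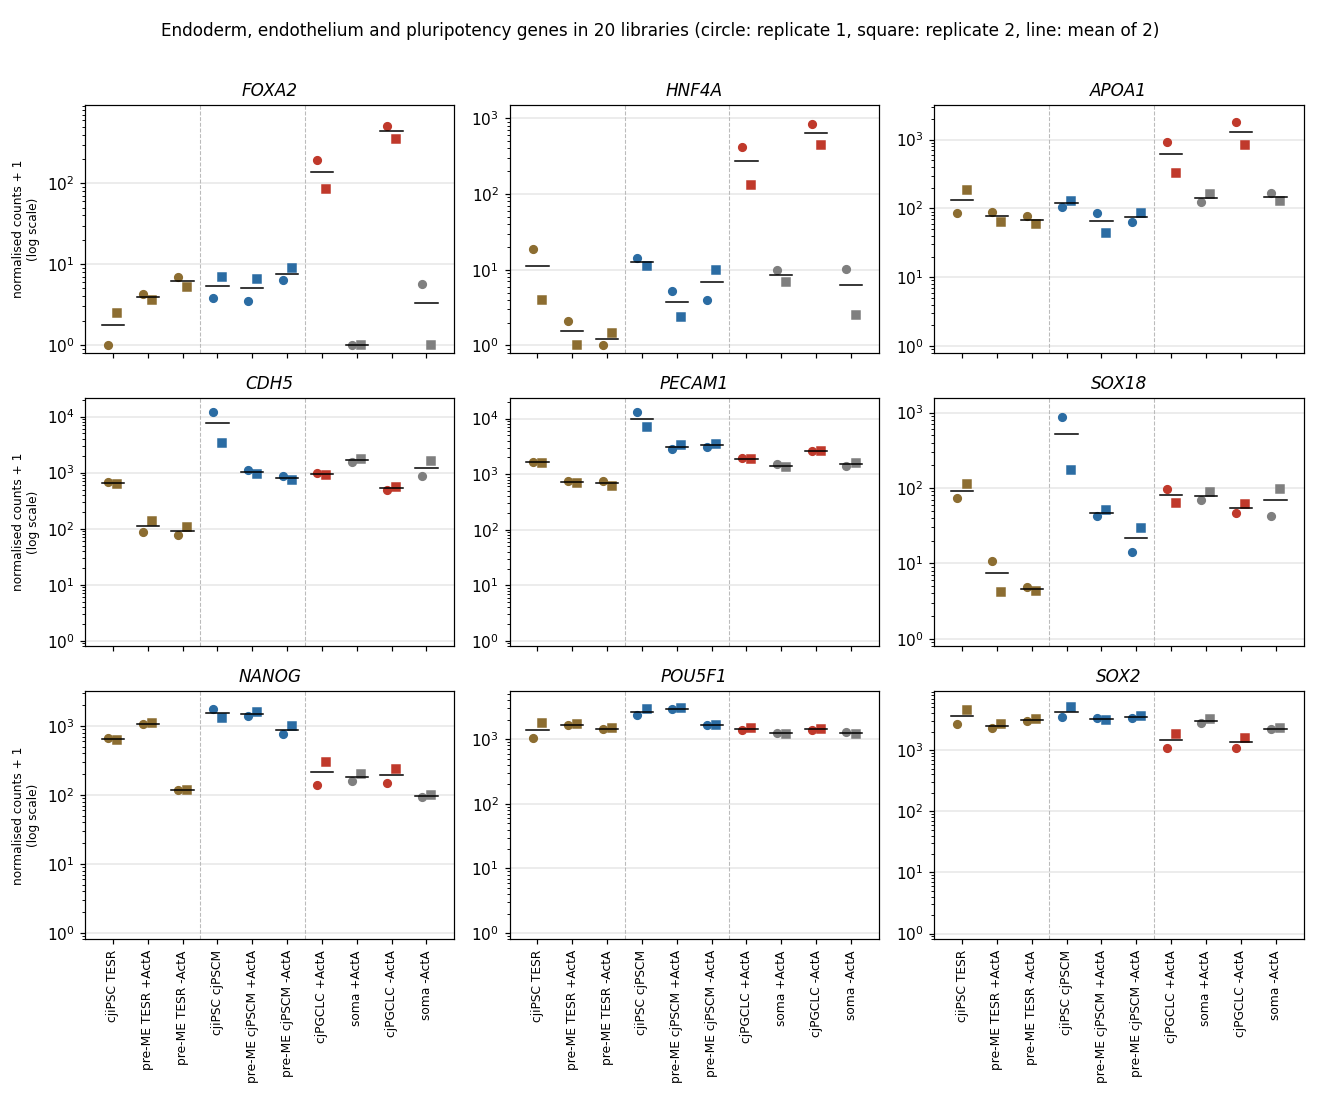
Normalised counts plus 1 (log axis) of 3 endoderm genes (top), 3 endothelial genes (middle) and 3 pluripotency genes (bottom) in the 20 libraries, drawn like the members. FOXA2, HNF4A and APOA1 are high in the cjPGCLCs, CDH5, PECAM1 and SOX18 in the cjPSCM cjiPSCs, and NANOG is low in all sorted cells.

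SOX17 is also a gene of other lineages, and endoderm markers were higher beside it in the cjPGCLCs. Of 11 endoderm genes, 7 were tested, and 4 of 7 were called higher in cjPGCLCs than in somatic cells with ActA (FOXA2, HNF4A and APOA1 among them, list median 2.15) and 5 of 7 without ActA (FOXA3 among them, list median 3.18). FOXA2, a pioneer factor of definitive endoderm, was at 192 and 83.9 in cjPGCLCs with ActA, where both somatic libraries had none, so it was at least 31-fold higher. Without ActA it was at 518 and 356 against 4.61 and 0, 251-fold (95% interval 69.4 to 2078) higher (adjusted p = 3.26e-06). HNF4A, a hepatocyte factor, was at 835 and 446 against 9.22 and 1.55 without ActA (log2 fold change 7.09, standard error 0.79, adjusted p = 1.84e-05), and APOA1, an apolipoprotein, at 1772 and 824 against 168 and 127 (log2 fold change 3.18, standard error 0.49, adjusted p = 3.73e-04). Like SOX17, FOXA2 had fewer normalised counts in cjPGCLCs with ActA than without (log2 fold change -1.65, adjusted p = 0.0295), short of the fold threshold. Summed over the 11 genes, the endoderm list held 3816 to 10490 normalised counts in cjPGCLCs and 2876 to 5537 in somatic cells, a sum in which GATA4 and GATA6, both also active in mesoderm, weighed most. Between replicates of the cjPGCLCs with ActA, FOXA2, HNF4A and APOA1 were higher in replicate 1, as was NANOS3, whereas SOX17 was higher in replicate 2. In the cjPGCLCs without ActA all of these genes were higher in replicate 1, SOX17 by little (2152 and 2096). CER1 had at most 1 read in the cjPGCLC libraries, and AFP and TTR, hepatic genes, were at 19.7 and 3.15 and at 13.7 and 1.58 normalised counts, respectively, without ActA. CXCR4, a sort marker, is itself a surface protein of definitive endoderm. The part of endoderm cells in the SOX17 level of the sorted cells was not tested.

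In the cjPSCM cjiPSCs, endothelial genes and some endoderm genes accompanied SOX17. Against TESR cjiPSCs, 2 of the 7 endoderm genes tested were called, both with more RNA in cjPSCM (list median 2.19). Endoderm sums were 2984 and 2441 normalised counts in cjPSCM cjiPSCs, against 278.7 and 433.3 in those of TESR. GATA6 weighed most, at 2821 and 2232 in cjPSCM. The 10 listed endothelial genes summed to 41940 and 19870 normalised counts in replicates 1 and 2 of the cjPSCM cjiPSCs. In TESR cjiPSCs this endothelial sum was 9782 and 8251, and all cjPSCM pre-ME libraries held between 6389 and 9990. CDH5 was at 11857 and 3403 in cjPSCM and 671 and 619 in TESR (log2 fold change 3.55, standard error 0.43, adjusted p = 7.12e-06), PECAM1 at 12988 and 7096 against 1682 and 1565 (log2 fold change 2.61, standard error 0.21, adjusted p = 1.11e-07), and SOX18 at 860.0 and 170.5 against 71.6 and 110.2 (log2 fold change 2.54, standard error 0.56, adjusted p = 0.00196). The replicate with more SOX17 and TFAP2C thus also had more of these genes, and it had a lower share of reads outside genes (12.15% against 19.3%). The part of either in the members' levels was not tested. In cjPGCLCs against somatic cells none of the 10 was called by edgeR or DESeq2, although 2 with ActA and 7 without had an unadjusted p under 0.05 in edgeR, and their sum was 5771 to 7276 in cjPGCLCs and 7128 to 9139 in somatic cells. Of the 9 amnion genes tested, TFAP2B alone was called, with ActA and without (list medians -0.11 and 0.85), and the list summed to 10910 to 15210 in cjPGCLCs and 10540 to 14420 in somatic cells. Of 12 mesoderm genes tested, 0 were called with ActA by edgeR or DESeq2 (5 at an unadjusted p under 0.05 in edgeR) and HAND2, a factor of heart and limb mesoderm, was lower in cjPGCLCs without ActA (log2 fold change -2.26, standard error 0.41, adjusted p = 0.00154), with list medians of 0.24 and -0.13 and sums of 8537 to 12840 in cjPGCLCs and 9022 to 18510 in somatic cells. PDGFRA, a receptor of mesenchymal cells, was at 7781 and 5585 in cjPGCLCs and 8217 and 6436 in somatic cells without ActA, so its RNA was high on both sides of the sort. Of 6 neural genes tested, OTX1 was called higher in both sort comparisons (list medians 0.50 and -0.87), at 20.5 and 41 against 6.92 and 3.09 without ActA, a call that DESeq2 did not make, and the list, in which NES weighed most, summed to 10770 to 18030 in cjPGCLCs and 21100 to 27130 in somatic cells. At the step from cjPSCM cjiPSCs to pre-ME, 3 of 10 endothelial genes were lower with ActA and 6 of 10 without, and in TESR 3 and 4 were. Of the endoderm genes 1 of 7 was lower in each of the 4 steps, and 1 was higher in both steps without ActA. Amnion genes had 1 lower in each step with cjPSCM, 1 higher and 1 lower in TESR with ActA and 2 lower without it. Mesoderm genes had 1 and 2 lower in cjPSCM with and without ActA, 3 higher and 2 lower in TESR with ActA and 1 each without it. Of the neural genes 2 and 3 were higher in cjPSCM, 1 was higher in TESR with ActA, and 2 were higher and 1 lower without it. The part of these lineages in the members' levels was not tested.

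Over the 20 libraries, which share conditions and differ in depth, pairs of members followed each other to different degrees, given as Pearson correlations of log2 normalised counts plus 1. SOX17 went with NANOS3 (r = 0.835), TFAP2C (r = 0.780) and DPPA3 (r = 0.747), TFAP2C with DPPA3 (r = 0.814), and PRDM1 with PRDM14 (r = 0.760). SOX17 and PRDM1 had an r of 0.029. The 3 genes outside the set with the most similar pattern were FRMPD1, APOC1 and KLF5 for SOX17 (r from 0.895 to 0.918), SYBU, BNIP3 and CRACR2B for TFAP2C (0.903 to 0.904) and C22H19orf12, DAG1 and ASF1B for PRDM1 (0.927 to 0.933). For PRDM14 they were INPP5D, MET and HTR3A (0.891 to 0.901), for NANOS3 STX3, MPV17L and PXK (0.892 to 0.911), for DPPA3 NCAM2, UNC13B and DPYSL3 (0.917 to 0.927) and for SOX15 EFNA3, C5H17orf107 and RNF220 (0.721 to 0.750). These choices depended on the measure. With a pseudocount of 10 between 1 and 3 of the 3 genes were chosen again for each member, and by Spearman's rho 0 or 1.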

How the data were processed

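The members and gene lists were chosen with earlier results of these data known. The authors made poly(A) libraries, mapped paired-end reads with STAR 2.7.0a to calJac4, counted them with HTSeq 0.11 and deposited raw counts. They also deposited a normalised signal, in which each library's counts had been scaled with its DESeq2 size factor, and this gave all levels here. The annotation release and the strand setting are not given in the sources used here. Reads of a gene that overlaps another can thus be counted for the wrong gene or left out as ambiguous. Reads outside genes (10.6% to 23.2% per library) and ambiguous reads (0.268% to 0.35%) were left out. Conditions came from the sample labels.

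Raw counts were tested with edgeR 4.0.16 (R 4.3.3) by the quasi-likelihood F-test with TMM in 1 model of all 20 libraries (10 residual degrees of freedom), after edgeR's filter on low counts. P-values were adjusted by Benjamini-Hochberg per comparison, and thresholds were those of the study. There were 19 comparisons of conditions and 4 interactions, 2 of them added after the data were seen. The tests were also run on simulated counts with the same dispersion for every gene, which does not cover genes with few reads or uneven replicates. Where a group had 1 to 3 reads, the ratio of size-factor normalised counts has an exact 95% binomial interval, and against 0 reads a bound uses 3 counts per library. Alternatives were DESeq2 1.42.0, its size factors in edgeR, no filter, the libraries of a comparison only, a replicate block and each library left out. Similar genes were also ranked with a pseudocount of 10 and by Spearman's rho. Named list genes were up to 4 per list with the largest change among those called in cjPGCLCs against somatic cells without ActA, the inducers and pluripotency genes named throughout, and the sort markers; MSX1, PDGFRA, CDH5, PECAM1, SOX7, SOX18, FOXA3, PRDM12, GATA4, GATA6, CER1, AFP, TTR, NES and DDX4 were chosen after their values were seen. One gene that the rule would name is not reported here.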

Additional observations from a re-analysis of the deposited data

Results flagged for a closer look

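TFAP2C is listed because its step from cjiPSC to pre-ME with ActA differed between the media by the test of the difference itself. The difference between cjPSCM and TESR was -2.67 on the log2 scale (standard error 0.73, adjusted p = 0.038). The levels went from 213 and 60.8 to 63.4 and 78.6 normalised counts in cjPSCM and from 7.16 and 10.4 to 32.8 and 20.7 in TESR, higher after the step in both TESR libraries. This comparison was chosen after the data were seen, and 6.20% of all genes passed the same test. Replicates 1 and 2 of the cjPSCM cjiPSCs differed 3.50-fold in TFAP2C, and without replicate 1 the difference was -1.46 (adjusted p = 0.111). The step in cjPSCM, -0.98, turned to 0.24 without that replicate. The part of that library in the result was not tested further. The TESR pre-ME libraries also carry separate sample numbers, so a difference in their preparation cannot be told apart from one of the step.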

How the results depend on the processing

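Of the 226 counts of called members under the alternatives, 183 stayed within 1.5 times the value in the report. Where they did not, the cause was not tested, apart from the fewer samples or other genes that an alternative tests. With the libraries of a comparison only, the count of called members was 0 for the step to pre-ME without ActA in cjPSCM, 1 for somatic cells against pre-ME with ActA and 1 without ActA, 1 for cjPGCLCs against cjiPSCs with ActA, 1 (SOX17) for the sort by ActA, 1 (PRDM14) for ActA by medium and 0 for the step by medium with ActA. With no filter it was 1 for ActA in TESR pre-ME (DPPA3), 1 for the sort by ActA (SOX17), 1 for ActA by medium, and 3 for the step by medium both with and without ActA. For somatic cells against pre-ME with ActA it was 1 with DESeq2's size factors, and for the step by medium without ActA it was 1 with DESeq2. With 1 library left out, the counts ran from 1 to 2 for the step to pre-ME in cjPSCM with ActA and from 0 to 1 without it, from 0 to 1 in TESR without ActA, from 0 to 1 and from 1 to 2 for the medium in pre-ME with and without ActA, from 1 to 2 for cjPGCLCs against pre-ME with ActA, from 0 to 2 for somatic cells against pre-ME with ActA, from 1 to 3 and from 2 to 4 for cjPGCLCs against somatic cells with and without ActA, from 1 to 3 for cjPGCLCs against cjiPSCs with ActA, and from 0 to 2 and from 0 to 3 for the step by medium with and without ActA. A log2 fold change reversed for PRDM14 in the step to pre-ME without ActA in cjPSCM (2.03 without replicate 2 of the cjiPSCs, -1.27 without replicate 1) and for TFAP2C in cjPGCLCs against cjiPSCs (0.93 with ActA and 0.91 without, both without replicate 1 of the cjiPSCs, against -0.92 and -0.94 without replicate 2). It also reversed without replicate 1 of the cjPSCM cjiPSCs for TFAP2C in the steps to pre-ME in cjPSCM (0.24 with ActA and 0.55 without, against -1.60 and -1.29 without replicate 2) and for PRDM14 between the media in cjiPSCs (0.66, against -2.64 without replicate 2). None of the 32 called log2 fold changes changed sign under any alternative run.

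Equal replicate numbers did not pair the samples by the labels, and the correlation of their deviations ran from -0.193 to 0.234 over the comparisons. With the replicate block, somatic cells against pre-ME with ActA had 1 called member, the medium in cjiPSCs had 2, and the other counts did not change. A block with crossed numbers for the 3 comparisons with a correlation under -0.1, added after seeing the data, called 0 and 1 members in the steps to pre-ME in cjPSCM with and without ActA and 2 in somatic cells against pre-ME without ActA.

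Depth limits PRDM14 in sorted cells and NANOS3 and DPPA3 in somatic cells, where 0 to 3 reads per library leave ratios with wide counting intervals. With 2 libraries per condition, taken here as cultures of 1 clone, p-values rest on the spread between such cultures, estimated in 1 model of all 20 libraries. A group with uneven replicates, such as the cjPSCM cjiPSCs, is thus judged on a spread shared with the other groups.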
